A study of Homo sapiens with 9 samples.

Results

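In RNA sequencing of MDA-MB-231 cells depleted of AHR, 10 genes were followed that mark where a cell stands between an epithelial and a mesenchymal state. They are the transcription factors SNAI1, SNAI2, ZEB1, ZEB2, TWIST1 and TWIST2, the filament protein gene VIM, the cadherin genes CDH1 and CDH2, and the epithelial adhesion gene EPCAM. They were chosen by name, with earlier results of these data known, as the 10 of 60649 rows of the count table whose gene symbol matched exactly. Each symbol was found in a single row. Of the 10, 7 passed the filter on low counts and were tested, and these 7 reached the filter's cutoff of 0.516 CPM in every one of the 9 libraries. CPM are counts divided by the scaled library size, the usual depth-normalized unit, but for this cutoff the unscaled total was used. TWIST1 and TWIST2 had no count anywhere, and CDH2 never exceeded 8 counts.

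MDA-MB-231 is a long-established line from a human breast cancer of the triple-negative class, and the labels describe its cells as mammary epithelial. All 3 groups had 3 replicate libraries from lentivirally transduced cells in growing culture: the vector control PLKO-GFP, and cells carrying either of a pair of short hairpin RNAs against AHR, shAHR#2 or shAHR#3. AHR encodes the aryl hydrocarbon receptor, a ligand-activated transcription factor. The study's methods describe its lentiviral lines as puromycin-selected survivors that were pooled and not cloned, and no label says that replicates came from separate cultures, so p-values measure only the spread between these libraries, which may be technical.

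In an epithelial-mesenchymal transition (EMT), cells loosen their junctions, exchange E-cadherin for N-cadherin and replace part of their keratin network with vimentin. SNAIL (SNAI1), SLUG (SNAI2), ZEB1 and ZEB2 are zinc finger repressors that bind E-boxes, short CANNTG elements such as CACCTG, and act on genes that include CDH1, while TWIST1 and TWIST2 are basic helix-loop-helix factors of the same programme. MDA-MB-231 is known as a line of mesenchymal character with little E-cadherin. AHR with its partner ARNT binds elements whose core is GCGTG.

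Total counts ran from 15991396 to 20374460 per library, and 14274 genes were tested. AHR itself was counted at 114 to 121 CPM in the PLKO-GFP libraries, 40.4 to 42.5 with shAHR#2 and 44.5 to 52.1 with shAHR#3, on the side its labels call for. All 8 breast epithelial markers examined, CDH1 and EPCAM among them, were counted. Their summed level was 911 to 961 CPM with PLKO-GFP, 1060 to 1110 with shAHR#2 and 1230 to 1320 with shAHR#3. Keratins made up most of this sum: KRT8, KRT18, KRT7 and KRT19 had PLKO-GFP means of 284, 304, 229 and 99.8 CPM. CDH1 rose but added little to it, with means of 0.909, 1.8 and 4.16 CPM in the same group order. EPCAM, with means of 6.62, 6.06 and 6.11 CPM, was not higher with either hairpin, and neither was GATA3. The summed level of 8 fibroblast markers, of which COL3A1, DCN and PDGFRA never exceeded 3 counts, was 16.1 to 19.4, 14.5 to 15.9 and 30.0 to 33.6 CPM. Its members differed in direction. In the same group order, means were 8.2, 4.62 and 18.3 CPM for PDGFRB and 6.31, 10 and 11.3 for COL1A1. COL1A2 fell with both hairpins, at 1.76, 0.42 and 0.305 CPM. For 5 endothelial markers, with TEK at or under 3 counts, the sums were 6.53 to 7.00, 11 to 13.3 and 12.1 to 14 CPM. These sums join opposite changes: PECAM1 rose, with means of 2.4, 11.2 and 12.2 CPM, and KDR fell, with 4.21, 0.618 and 0.332. Among leukocyte markers CD3E was at 0 in every library, while the range over libraries with PLKO-GFP, shAHR#2 and shAHR#3 was 0.0565 to 0.2, 0.886 to 1.77 and 0.716 to 1.46 CPM for PTPRC and 0.452 to 0.658, 2.89 to 3.16 and 1.12 to 2.1 CPM for LYZ. For CD68 it was 0.499 to 0.96, 0.569 to 1.13 and 0.83 to 0.972 CPM and for CD14 0.849 to 1.06, 0.253 to 0.429 and 0.463 to 0.819 CPM. The part of these markers in the results was not tested.

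ZEB1 and VIM rose with both hairpins, and their promoter windows are shown because these hold, or lack, the elements that the receptor and the EMT factors read. RefSeq windows (GRCh38.p14, 250 bases before to 50 after a transcript start) were at hand for 5 of the 10 genes: ZEB1, ZEB2, TWIST2, VIM and CDH2. SNAI1, SNAI2, TWIST1, CDH1 and EPCAM are named only. ZEB1 has 7 such windows, of which 2 held GCGTG and 2 held CACCTG on either strand, and for each motif the window with the most matches is shown. The windows below lie on the plus strand of chromosome 10, at chr10:31318568-31318867 and chr10:31318966-31319265 for ZEB1 and at chr10:17227991-17228290 for VIM. Capitals mark GCGTG or its reverse complement CACGC in the first ZEB1 window and CACCTG or its reverse complement CAGGTG in the other ZEB1 window.
ZEB1 window with GCGTG: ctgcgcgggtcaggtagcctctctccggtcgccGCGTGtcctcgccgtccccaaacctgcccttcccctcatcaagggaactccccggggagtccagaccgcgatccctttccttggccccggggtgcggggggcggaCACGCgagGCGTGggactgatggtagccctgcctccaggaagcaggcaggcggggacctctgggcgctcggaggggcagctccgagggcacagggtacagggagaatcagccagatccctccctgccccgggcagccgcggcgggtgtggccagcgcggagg
ZEB1 window with CACCTG: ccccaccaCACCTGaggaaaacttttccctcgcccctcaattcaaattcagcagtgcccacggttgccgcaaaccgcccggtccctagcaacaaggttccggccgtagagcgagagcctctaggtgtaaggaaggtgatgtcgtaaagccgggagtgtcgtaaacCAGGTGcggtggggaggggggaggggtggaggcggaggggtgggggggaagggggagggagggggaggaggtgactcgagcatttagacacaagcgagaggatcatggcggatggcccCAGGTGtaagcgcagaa
VIM window: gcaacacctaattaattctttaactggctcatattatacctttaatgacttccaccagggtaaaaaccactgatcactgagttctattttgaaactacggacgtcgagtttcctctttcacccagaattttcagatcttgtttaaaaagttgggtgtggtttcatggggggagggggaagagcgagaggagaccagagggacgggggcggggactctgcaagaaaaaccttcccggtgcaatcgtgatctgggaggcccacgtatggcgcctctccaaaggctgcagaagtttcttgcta

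The first of these ZEB1 windows held 3 matches to GCGTG on either strand and none to CACCTG, and the other held 3 matches to CACCTG on either strand and none to GCGTG. The VIM window held neither. GCGTG or CACGC was found in 36.5% of all 35116 windows and CACCTG or CAGGTG in 20.6%. In the windows shown no match to either motif shared bases with a match to the other. A match is a run of letters only, and its absence covers only the window.

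SNAI2 fell with both hairpins, ZEB1, VIM and CDH1 rose with both, and SNAI1 rose with shAHR#3. ZEB2 and EPCAM passed the test in neither comparison. With shAHR#2, 4 of the 7 tested genes passed an adjusted p of 0.05 (3 higher and 1 lower), where 65.8% of all genes tested passed, 32.6% higher and 33.2% lower. With shAHR#3, 5 of 7 passed (4 higher and 1 lower), against 54.4% of all genes, 26.9% higher and 27.5% lower. Shares of 57.1% and 71.4% among 7 genes are near these backgrounds, so the genes are described by their sizes and levels, and both comparisons share the PLKO-GFP libraries. The median log2 fold change of the 7 was 0.04 with shAHR#2 and 0.27 with shAHR#3, where that of all genes was -0.0032 and -0.0001 and the median absolute log2 fold change 0.32 and 0.23. In cells in bulk, a change in the share of cells that express a gene and a change in RNA per cell cannot be told apart.

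**Figure D1:**
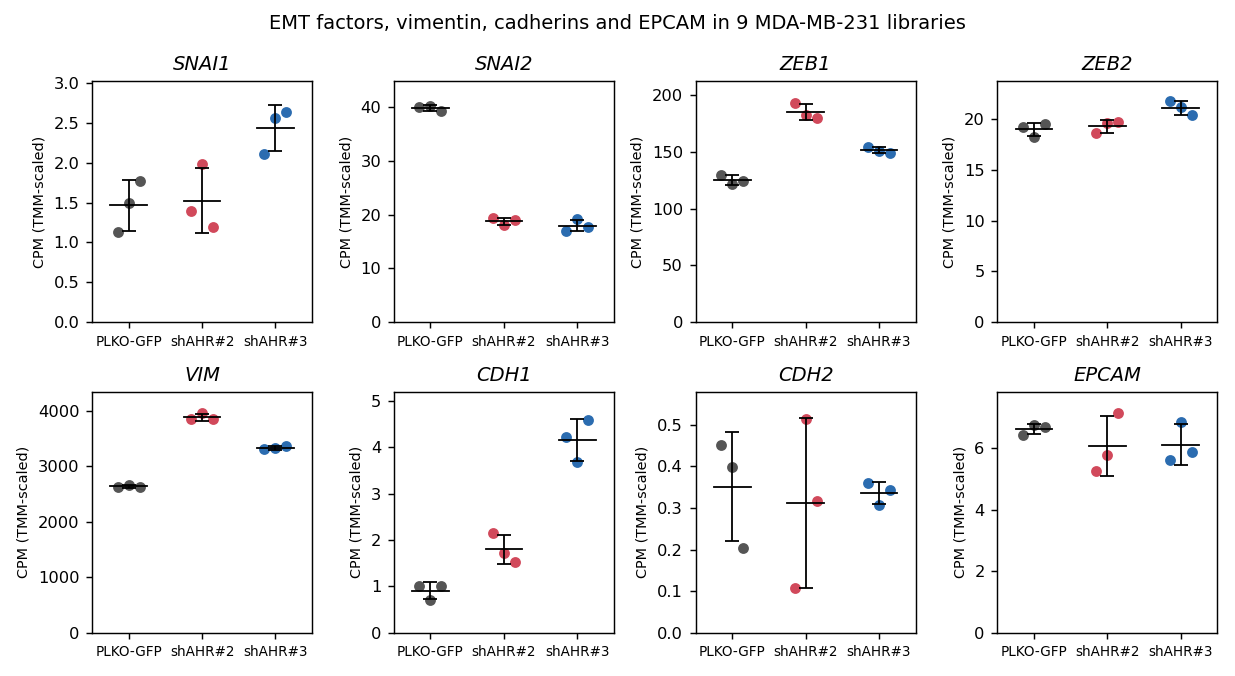
Level of 8 genes in each of the 9 libraries, in CPM scaled by TMM (vertical axes start at 0), for PLKO-GFP, shAHR#2 and shAHR#3; points are libraries, horizontal lines group means and bars 1 SD. SNAI2 libraries with a hairpin sat at 17.0 to 19.3 CPM below controls at 39.2 to 40.2, while ZEB1, VIM and CDH1 libraries with a hairpin all sat above the controls.

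SNAI2 (ENSG00000019549.13), on the minus strand of chromosome 8 (48917598 to 48921740), encodes SLUG, the repressor linked to basal and progenitor states in mammary tissue. It was counted at 40.0, 40.2 and 39.2 CPM in the PLKO-GFP libraries, at 19.3, 18.0 and 18.9 with shAHR#2 and at 17.0, 19.1 and 17.7 with shAHR#3. Every hairpin library lay below every control library, and the hairpin groups overlapped each other. SNAI2 thus stood at 47.0% ± 1.71 (SD, n = 3) of the control mean with shAHR#2 and 45.0% ± 2.77 with shAHR#3, giving log2 fold changes of -1.09 and -1.15 (standard error 0.07 each, adjusted p = 9.32e-17 and 2.28e-17 by edgeR's quasi-likelihood test, Benjamini-Hochberg adjusted). SNAI2 was the single gene of the 7 that fell. Changes of at least 1 on the log2 scale with an adjusted p under 0.05 were seen in 11.8% of all genes with shAHR#2 and in 6.73% with shAHR#3. SNAI2 was the only one of the 7 past this size with shAHR#2, and SNAI2 and CDH1 were past it with shAHR#3.

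SNAI1 (ENSG00000124216.4), on chromosome 20 (49982980 to 49988886, plus strand), encodes SNAIL, a repressor with a short protein half-life and a low transcript level in many cells. It was counted at 20, 30 and 35 reads in the PLKO-GFP libraries, 26, 31 and 19 with shAHR#2 and 41, 50 and 54 with shAHR#3, which is 1.13 to 1.77, 1.20 to 1.99 and 2.11 to 2.64 CPM. The shAHR#3 libraries lay above all others, and those with shAHR#2 overlapped the controls. The log2 fold change was 0.72 with shAHR#3 (standard error 0.24, adjusted p = 0.0106 by edgeR's quasi-likelihood test), and without PLKO-GFP replicate 1 it was 0.57 with an adjusted p of 0.0682, past the threshold no longer. With shAHR#2 it was 0.04 (95% interval -0.50 to 0.59, adjusted p = 0.896), an interval that does not separate a small rise from a small fall. SNAI3, the remaining paralog of the family, was not tested, with 0 to 1, 0 to 5 and 1 to 4 reads per library in the 3 groups.

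ZEB1 (ENSG00000148516.23), on chromosome 10 (31318495 to 31529814, plus strand), encodes a zinc finger and homeodomain repressor that is in mutual repression with the miR-200 family. Its level was 130, 122 and 124 CPM in the PLKO-GFP libraries, 193, 182 and 180 with shAHR#2 and 154, 151 and 149 with shAHR#3. No library of any group overlapped those of another. ZEB1 rose to 147% ± 5.67 (SD, n = 3) of the control mean with shAHR#2 and 121% ± 1.78 with shAHR#3, giving log2 fold changes of 0.56 and 0.27 (standard error 0.03 each, adjusted p = 3.12e-17 and 1.09e-08 by edgeR's quasi-likelihood test).

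ZEB2 (ENSG00000169554.22), on chromosome 2 (144364364 to 144521057, minus strand), encodes the second factor of that family. Its libraries held 19.2, 18.3 and 19.5 CPM with PLKO-GFP, 18.6, 19.6 and 19.7 with shAHR#2 and 21.8, 21.2 and 20.4 with shAHR#3. The shAHR#3 libraries lay above all the others by a small margin. The log2 fold change was 0.02 with shAHR#2 (95% interval -0.13 to 0.17, adjusted p = 0.83) and 0.15 with shAHR#3 (0.0032 to 0.30, adjusted p = 0.0782, unadjusted p = 0.0455, by edgeR's quasi-likelihood test), so neither passed. A rise of ZEB2 as large as that of ZEB1 with shAHR#2 (0.56) lies outside the interval of ZEB2 in either comparison, but the rise of ZEB1 with shAHR#3 (0.27) lies inside the interval of ZEB2 with that hairpin.

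TWIST1 (ENSG00000122691.13, chromosome 7, 19020991 to 19117636, minus strand) and TWIST2 (ENSG00000233608.4, chromosome 2, 238848032 to 238910534, plus strand) had 0 of 166949360 counts over the 9 libraries. A count of 0 allows up to 3 counts, or 0.0180 CPM, which covers counting error only. The 2 genes shared no 50-base sequence with each other, and those TWIST1 shared with another annotated transcript, 2.52% of its own, belonged to a long noncoding RNA.

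VIM (ENSG00000026025.16), on chromosome 10 (17228241 to 17237593, plus strand), encodes vimentin, the intermediate filament protein of mesenchymal cells. Its libraries held 2620, 2660 and 2620 CPM with PLKO-GFP, 3840, 3950 and 3840 with shAHR#2 and 3300, 3320 and 3370 with shAHR#3. The groups did not overlap, and their order was that of ZEB1. VIM rose to 147% ± 2.44 (SD, n = 3) of the control mean with shAHR#2 and 126% ± 1.37 with shAHR#3, giving log2 fold changes of 0.56 and 0.34 (standard error 0.02 each, adjusted p = 9.51e-22 and 6.93e-15 by edgeR's quasi-likelihood test).

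CDH1 (ENSG00000039068.20), on chromosome 16 (68737292 to 68835537, plus strand), encodes E-cadherin, the calcium-dependent adhesion protein of epithelial junctions. It was counted at 18, 14 and 20 reads in the PLKO-GFP libraries, 40, 27 and 24 with shAHR#2 and 82, 72 and 94 with shAHR#3, which is 0.699 to 1.02, 1.52 to 2.15 and 3.68 to 4.59 CPM. The 3 groups did not overlap. CDH1 stood at 198% ± 35.0 (SD, n = 3) of the control mean with shAHR#2 and 458% ± 50 with shAHR#3, giving log2 fold changes of just under 1 (95% interval 0.44 to 1.55) and 2.19 (1.73 to 2.66), with adjusted p = 0.00165 and 2.47e-10 by edgeR's quasi-likelihood test. The change was the largest among the 7 genes with shAHR#3, and per kilobase of exon the level it reached, 0.685 ± 0.0749 CPM per kb, was below that of EPCAM in control cells, 2.72 ± 0.0664. At these counts the spread between replicates was 20% of the mean with PLKO-GFP, against 1.02% for VIM.

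CDH2 (ENSG00000170558.10), on chromosome 18 (27932879 to 28177946, minus strand), encodes N-cadherin. It was counted at 8, 8 and 4 reads with PLKO-GFP, 2, 8 and 5 with shAHR#2 and 7, 6 and 7 with shAHR#3. The groups overlapped. Without a filter on low counts, its log2 fold change was -0.20 with shAHR#2 (95% interval -1.42 to 1.01, adjusted p = 0.867) and -0.05 with shAHR#3 (-1.21 to 1.10, adjusted p = 1, by edgeR's quasi-likelihood test), so a change of 1 in either direction could not be detected at this depth.

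EPCAM (ENSG00000119888.11), on chromosome 2 (47345158 to 47387601, plus strand), encodes a homophilic adhesion protein of epithelial cells. It was counted at 114, 135 and 132 reads with PLKO-GFP, 98, 90 and 113 with shAHR#2 and 109, 134 and 120 with shAHR#3, which is 6.44 to 6.74, 5.26 to 7.15 and 5.61 to 6.86 CPM. The 3 groups overlapped. The log2 fold changes were -0.14 (95% interval -0.41 to 0.14, adjusted p = 0.383) and -0.12 (-0.38 to 0.14, adjusted p = 0.463, by edgeR's quasi-likelihood test). A rise of EPCAM as large as that of CDH1 lies outside both intervals.

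**Figure D2:**
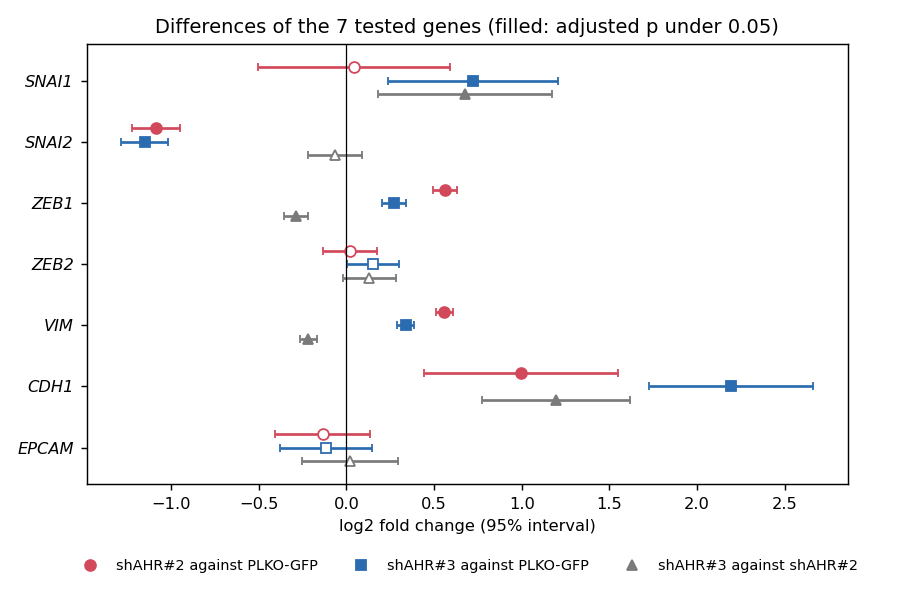
Log2 fold change (horizontal axis) of the 7 tested genes for shAHR#2 against PLKO-GFP, shAHR#3 against PLKO-GFP and shAHR#3 against shAHR#2, with bars for the 95% interval and filled symbols for an adjusted p under 0.05. CDH1 reached 2.19 with shAHR#3, SNAI2 lay near -1.1 with each hairpin, and the intervals of ZEB1 and VIM were narrow beside those of SNAI1 and CDH1.

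The hairpins were also compared directly, to see where their effects differed. Of the 7 genes, 4 passed (57.1%, 2 higher and 2 lower with shAHR#3), against 42.3% of all genes, 21.9% higher and 20.4% lower. CDH1 was higher with shAHR#3 than with shAHR#2 by 1.20 on the log2 scale (95% interval 0.78 to 1.62, adjusted p = 1e-05 by edgeR's quasi-likelihood test). Of all genes, 3.71% had a change of at least 1 in either direction with an adjusted p under 0.05. ZEB1 and VIM were lower with shAHR#3, by -0.29 and -0.22 (adjusted p = 3.11e-09 and 9.13e-10). SNAI1 was higher with shAHR#3 by 0.68 (standard error 0.25, adjusted p = 0.0242), a call lost with DESeq2 (0.67, adjusted p = 0.0649). It was also lost without shAHR#2 replicate 1 (0.61, adjusted p = 0.0924), shAHR#2 replicate 3 (0.54, 0.116), shAHR#3 replicate 2 (0.64, 0.0675) or shAHR#3 replicate 3 (0.62, 0.0815). SNAI2 did not pass (-0.07, 95% interval -0.22 to 0.09, adjusted p = 0.52), nor did ZEB2 (0.13, adjusted p = 0.162) or EPCAM (0.02, adjusted p = 0.929). AHR itself was higher with shAHR#3 than with shAHR#2 by 0.19 (adjusted p = 0.00283). In this comparison CDH1 and SNAI1 went in the same direction, and ZEB1 and VIM in the other. Against PLKO-GFP, AHR was lower with both hairpins while CDH1 was higher with both.

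Levels of different genes were compared per kilobase of annotated exon. In PLKO-GFP cells VIM led with 509 ± 5.21 CPM per kb (SD, n = 3), followed by ZEB1 with 14.5 ± 0.461, SNAI2 with 12.1 ± 0.159, EPCAM with 2.72 ± 0.0664, SNAI1 with 0.860 ± 0.189, ZEB2 with 0.727 ± 0.0240, CDH1 with 0.15 ± 0.03 and CDH2 with 0.0409 ± 0.0153. Of neighbours in that order, SNAI1 and ZEB2 overlapped within their spread. With shAHR#2 the order was kept and SNAI1 (0.897 ± 0.241) and ZEB2 (0.738 ± 0.0232) again overlapped. With shAHR#3 the order was kept too, with SNAI1 at 1.43 ± 0.167, ZEB2 at 0.808 ± 0.0270 and CDH1 at 0.685 ± 0.0749. ZEB1 and SNAI2, close together in the control, stood at 21.4 ± 0.822 and 5.71 ± 0.208 with shAHR#2 and at 17.5 ± 0.258 and 5.46 ± 0.336 with shAHR#3. The exon length joins all annotated exons of a gene, 26.15 kb for ZEB2 and 1.705 kb for SNAI1, so a gene with many alternative exons is set too low on this scale.

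**Figure D3:**
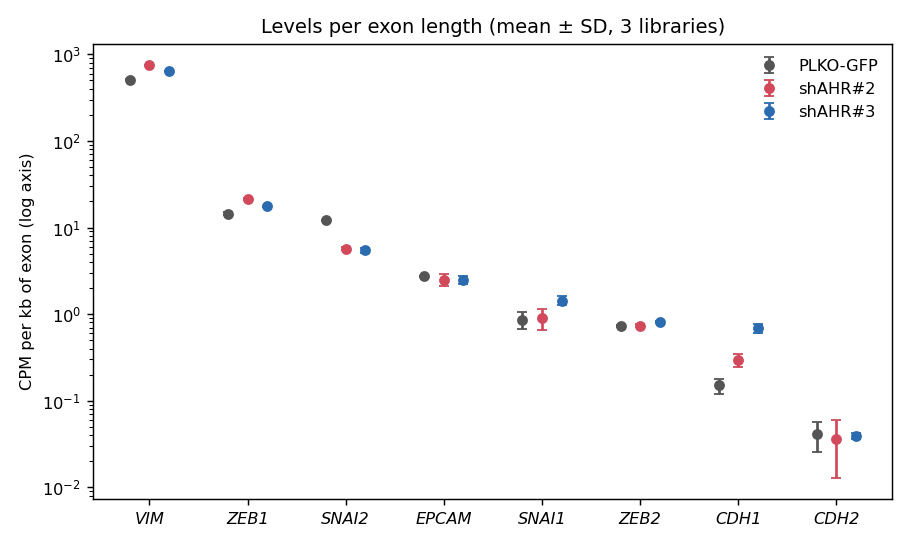
Mean level of 8 genes per kilobase of annotated exon (log axis, CPM per kb) in PLKO-GFP, shAHR#2 and shAHR#3, with bars of 1 SD over 3 libraries. VIM lay at 509 to 749 CPM per kb and CDH2 at 0.0364 to 0.0409, and the gap between ZEB1 and SNAI2 was wider with either hairpin than in the control.

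Several of these genes share sequence or position with antisense transcripts, and whether the authors' counting used strand is not given in the sources used here. VIM-AS1 and ENSG00000234961, on the opposite strand, overlap VIM exons by 656 and 619 bases, and 20.7% of the 50-base sequences of VIM transcripts also occur in other genes. These antisense genes had at most 137 and 107 reads per library, against at least 46311 for VIM. ENSG00000234961, listed as RP11-124N14.3, stood in the group order of VIM, at 3.85 ± 0.175 CPM (SD, n = 3) with PLKO-GFP, 6.03 ± 0.586 with shAHR#2 and 4.37 ± 0.401 with shAHR#3. It passed with shAHR#2 (log2 fold change 0.65, adjusted p = 0.000236 by edgeR's quasi-likelihood test) and not with shAHR#3 (0.18, adjusted p = 0.316). VIM-AS1 fell where VIM rose, from 6.14 to 6.94 CPM with PLKO-GFP to 3.53 to 5.36 with shAHR#2 and to 2.88 to 3.19 with shAHR#3, giving log2 fold changes of -0.59 and -1.11 (with adjusted p = 8.61e-04 and 1.54e-07 by edgeR's quasi-likelihood test). ZEB1-AS1, which overlaps ZEB1 exons by 396 bases, was at 4.79 to 5.59 CPM with PLKO-GFP, 3.22 to 4.05 with shAHR#2 and 3.76 to 4.35 with shAHR#3, giving log2 fold changes of -0.53 (adjusted p = 0.00366) and -0.33 (adjusted p = 0.0577, not past the threshold). ZEB2-AS1, which overlaps ZEB2 exons by 1299 bases, had no count. Of the other genes, SNAI1 shared no such sequence with another gene and CDH1 shared 4.30% of its own.

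ZEB1 and VIM rose while the median gene of their chromosome was lower. The 573 tested genes of chromosome 10 had a median log2 fold change of -0.32 with shAHR#2 and -0.15 with shAHR#3, and 72.3% and 67.5% of them were lower. On chromosome 8, where SNAI2 lies, the medians over 499 genes were 0.10 and 0.08, and on chromosome 16, where CDH1 lies, they were 0.05 and 0.06 over 626 genes. The 382 tested genes of chromosome 20, with SNAI1 among them, had medians of -0.31 and -0.14.

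The genes most like each called gene across the 9 libraries were found among 11827 tested genes (average log2 CPM 1 or more), by the root-mean-square difference of log2 CPM centred on each gene's mean. The libraries of a group share their construct, so this likeness mostly compares 3 group means. For SNAI2 these were CAVIN2 (0.0806), MYH10 (0.0908) and VAMP4 (0.099), which stood at log2 fold changes of -1.15, -1.04 and -1.18 with shAHR#2 and -1.06, -0.99 and -1.03 with shAHR#3. For ZEB1 they were LRRC8B (0.0297), RCOR1 (0.033), which encodes the corepressor CoREST, and CD59 (0.0337). VIM was nearest to PLOD3 (0.0214), C8orf33 (0.0252) and CKAP4 (0.0265). SNAI1 was nearest to MPP7 (0.121), TRIM47 (0.17) and KLC4 (0.188). CDH1 was nearest to ZBTB7C (0.219), SUSD2 (0.221) and ELF3 (0.232), and ELF3, an epithelial transcription factor, rose from 3.49 to 4.04 CPM with PLKO-GFP to 7.19 to 7.71 with shAHR#2 and to 15.2 to 16.7 with shAHR#3.

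Other genes of the same programme were counted in lists written from general knowledge, with earlier results of these data known. Against the 65.8% and 54.4% of all genes that passed, the lists are given by their counts and medians, with no test of a list. Some list genes passed the filter only through the groups where they were high, so the filter favoured a difference in them. Of 18 further EMT transcription factors, 13 were tested: 7 rose and 4 fell with shAHR#2 (median log2 fold change 0.48) and 9 rose and 1 fell with shAHR#3 (median 0.30). Of these, 11 had a mean of at least 50 counts. Among the 11, 6 rose and 4 fell with shAHR#2 (median 0.29), and 8 rose and 1 fell with shAHR#3 (median 0.30). ID3, an inhibitor of basic helix-loop-helix factors, was at 6.16 to 7.65 CPM with PLKO-GFP, 15 to 17.7 with shAHR#2 and 19.4 to 21.4 with shAHR#3, a rise in log2 CPM of 1.21 and 1.55 (adjusted p = 3.3e-13 and 1.28e-16 by edgeR's quasi-likelihood test). Its relative ID2 was at 3.45 to 4.00, 4.18 to 6.04 and 7.46 to 8.49 CPM, a rise of 0.48 and 1.10 (adjusted p = 0.00697 and 2.11e-08). KLF8, a Krüppel-like factor, was called as higher with both, at 2 to 6 reads with PLKO-GFP, 24 to 37 with shAHR#2 and 15 to 24 with shAHR#3, and reached the cutoff only through the hairpin groups. SOX9, a factor of mammary stem and luminal progenitor cells, was the only gene of this list lower with both hairpins, by -0.15 and -0.49 (adjusted p = 7.46e-05 and 1.4e-15). SOX4 (-0.14 and 0.63) and ID1 (-0.14 and 0.55), chosen after their values were seen, passed in opposite directions.

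The epithelial transcription and splicing factors, many of them rivals of the ZEB factors, included 12 tested genes of 18. Of these, 8 rose and 1 fell with shAHR#2 (median log2 fold change 0.77), and 8 rose and 2 fell with shAHR#3 (median 0.84). OVOL2, FOXA1 and ESRP1 lay below the cutoff in the control group and reached it only with a hairpin. OVOL2, a repressor of mesenchymal genes, had 0 to 4 reads per library with PLKO-GFP, 11 to 14 with shAHR#2 and 10 to 14 with shAHR#3. ESRP1, an epithelial splicing regulator, had 0 to 6, 17 to 26 and 13 to 25 reads. FOXA1, a luminal pioneer factor, had none in the control libraries, 17 to 27 with shAHR#2 and 25 to 26 with shAHR#3, and was at least 8.63-fold and 8.14-fold higher against a floor of 3 counts per library. Among the 8 genes of the list with a mean of at least 50 counts, 5 rose and 1 fell with shAHR#2 (median 0.53) and 5 rose and 2 fell with shAHR#3 (median 0.47). ESRP2, the paralog of ESRP1, fell from 7.28 to 7.75 CPM with PLKO-GFP to 1.99 to 2.36 and 3.74 to 4.94 (log2 fold changes -1.73 and -0.82, adjusted p = 6.39e-12 and 4.12e-06 by edgeR's quasi-likelihood test). EHF, chosen after its values were seen, passed in opposite directions (0.40 and -0.36).

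Of 28 genes of epithelial junctions, 27 were tested. With shAHR#2, 11 rose and 7 fell (66.7% passed, median 0.18), near the 65.8% of all genes. With shAHR#3, 12 rose and 5 fell (63% passed, median 0.20), against 54.4% of all genes. The tight junction gene CLDN1 rose from 3.28 to 4.54 CPM with PLKO-GFP to 19.3 to 20.6 with shAHR#2 and to 14 to 14.4 with shAHR#3, giving log2 fold changes of 2.41 and 1.91 (with adjusted p = 7.25e-21 and 6.24e-17 by edgeR's quasi-likelihood test). SPINT1, an inhibitor of epithelial serine proteases, rose by 1.87 and 1.82 and the desmosomal cadherin DSC2 by 2.22 and 1.34. In the other direction, TJP3, a tight junction scaffold, had 55 to 63 reads in control libraries, only 1 to 4 with shAHR#2 and 22 to 39 with shAHR#3, and was called as lower with both. PATJ, a polarity scaffold, fell by 0.51 and 0.68 and CLDN4 by 0.50 and 0.54 on the log2 scale. DSG2, chosen after its values were seen, passed in opposite directions (0.18 and -0.10).

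Of 8 genes listed with the cadherin-catenin complex, 7 were tested. All 7 passed with each hairpin, where 65.8% of all genes passed with shAHR#2 and 54.4% with shAHR#3. They were 3 higher and 4 lower with shAHR#2 (median -0.31) and 4 higher and 3 lower with shAHR#3 (median 0.24). CTNND1 (p120-catenin) rose by 0.29 and 0.47, VCL (vinculin) by 0.13 and 0.24 and CTNNB1 (β-catenin) by 0.12 and 0.35. AFDN (afadin) fell by 0.31 and 0.36, CTNNBIP1 by 0.44 and 0.29 and CTNNA1 (α-catenin) by 0.41 and 0.11. JUP (plakoglobin), chosen after its values were seen, passed in opposite directions, at -0.32 and 0.68 (adjusted p = 6.64e-06 and 4.2e-14 by edgeR's quasi-likelihood test).

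Of 19 other genes of the CDH series, 9 had no count and 5 were tested, with 1 higher and 3 lower with shAHR#2 and 2 higher and 2 lower with shAHR#3. CDH3, which encodes the P-cadherin of basal breast epithelium, went from 2 to 5 reads with PLKO-GFP to 18 to 24 with shAHR#2 and to 25 to 51 with shAHR#3 and was called as higher with both. CDH11, which encodes the mesenchymal OB-cadherin, fell from 24.3 to 27.7 CPM to 0.886 to 1.5 with shAHR#2 and to 13.5 to 14.1 with shAHR#3, giving log2 fold changes of -4.33 and -0.90 (with adjusted p = 3.97e-26 and 6.96e-12 by edgeR's quasi-likelihood test). CDH4 fell by 1.17 and 0.79, and CDH24 stood at -0.02 and 0.03 (adjusted p = 0.87 and 0.819). CDH18 had 6 to 7 reads in the control libraries, none with shAHR#2 and 24 to 29 with shAHR#3, which makes it at least 1.93-fold lower in shAHR#2 libraries than in the control, and it was called as higher with shAHR#3 (adjusted p = 5.41e-05). CDH3 and CDH18 reached the cutoff only through a hairpin group.

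Of the mesenchymal genes other than VIM, 24 were tested, and 91.7% of these passed with shAHR#2, against 65.8% of all genes. They were split evenly, as 11 rose and 11 fell (median log2 fold change 0.07). All genes were split about evenly too, with 32.6% rising and 33.2% falling. With shAHR#3, 66.7% of the list passed, against 54.4% of all genes, and 10 rose while 6 fell (median 0.08). FN1 (fibronectin) rose from 802 to 823 CPM with PLKO-GFP to 2360 to 2430 with shAHR#2 and to 1700 to 1720 with shAHR#3, giving log2 fold changes of 1.56 and 1.07 (with adjusted p = 1.94e-35 and 1.04e-29 by edgeR's quasi-likelihood test). Its receptor subunit gene ITGA5 rose by 1.54 and 0.95, and SPOCK1, a proteoglycan gene, was called as higher with both, at 6 to 14 reads with PLKO-GFP, 79 to 118 with shAHR#2 and 27 to 35 with shAHR#3. SPOCK1 did not reach the cutoff in every control library, so it also entered the test through the hairpin groups. TNC (tenascin C) fell from 55.2 to 64.2 CPM to 15.2 to 16.1 and 10.8 to 12.0, log2 fold changes of -1.92 and -2.36 (with adjusted p = 5.06e-24 and 4.64e-26). TAGLN (transgelin), an actin-binding protein of contractile cells, fell by 1.10 and 0.56, and CDH11, which is in this list too, is given above.

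**Figure D4:**
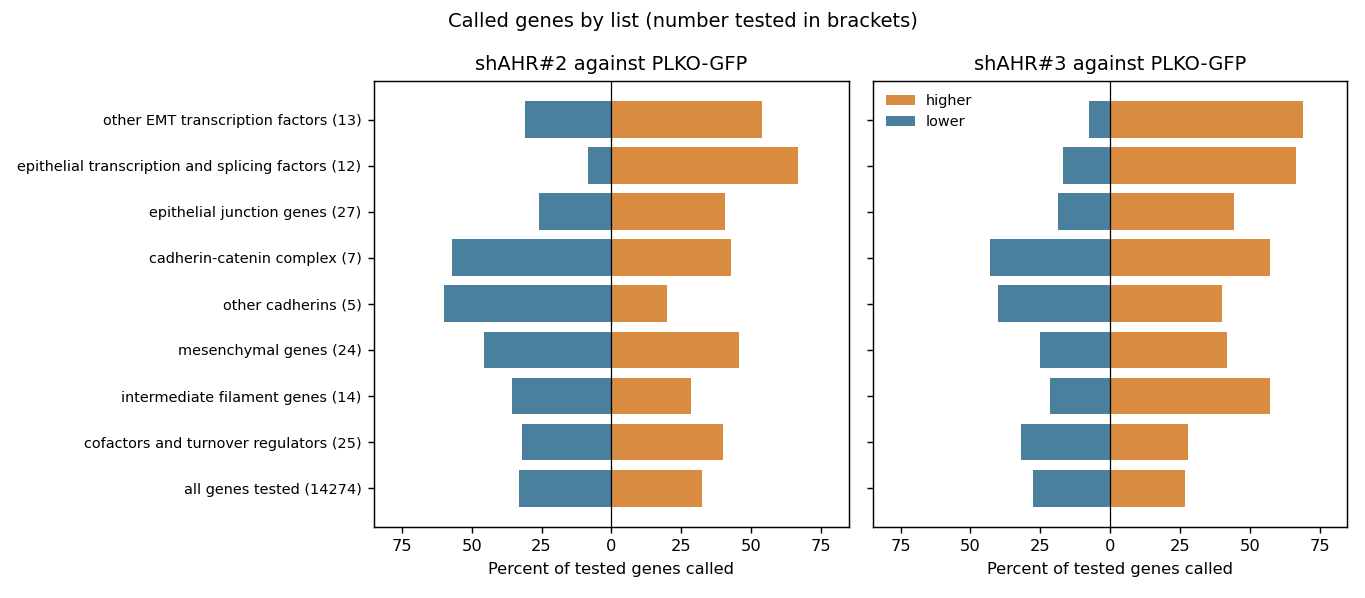
Percent of the tested genes of each list that passed an adjusted p of 0.05 as higher (right of 0) or lower (left of 0) with shAHR#2 and with shAHR#3 against PLKO-GFP, with all 14274 genes tested in the lowest bar. With shAHR#2, 45.8% of the mesenchymal genes were higher and 45.8% lower, and 66.7% of the epithelial transcription and splicing factors were higher with each hairpin. That last share includes OVOL2, FOXA1 and ESRP1, which reached the filter's cutoff only with a hairpin, so the filter favoured a difference in them.

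Of 20 intermediate filament and linker genes, 14 were tested. With shAHR#2, 4 rose and 5 fell (64.3% passed, median 0.01), near the 65.8% of all genes. With shAHR#3, 8 rose and 3 fell (78.6% passed, median 0.22), against 54.4% of all genes. The keratin KRT7 rose from 219 to 235 CPM with PLKO-GFP to 282 to 306 with shAHR#2 and to 350 to 393 with shAHR#3 (log2 fold changes 0.35 and 0.68). PLEC, the plectin linker, rose by 0.53 and 0.42 and LMNA, which encodes the A-type lamins, by 0.50 and 0.31. NES (nestin), often coassembled with vimentin, fell by 1.21 and 0.33, and the hair keratin KRT81, whose reads near-identical paralogs such as KRT86 may share, fell by 1.55 and 0.51, each with an adjusted p of at most 7.35e-07 in edgeR's quasi-likelihood test.

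Cofactors of the EMT repressors and enzymes that set their stability were tested in 25 of 26 genes, of which 10 rose and 8 fell with shAHR#2 (median 0.06) and 7 rose and 8 fell with shAHR#3 (median -0.01). AJUBA, a LIM protein that serves SNAIL as a corepressor, fell from 179 to 184 CPM with PLKO-GFP to 82.5 to 88.0 with shAHR#2 and to 125 to 132 with shAHR#3, giving log2 fold changes of -1.10 and -0.51 (with adjusted p = 1.09e-25 and 4.74e-16 by edgeR's quasi-likelihood test). LIMD1, of the same LIM family, rose by 0.28 and 0.41. The histone methyltransferase gene SUV39H1 fell by 0.69 and 0.48, and USP9X, a deubiquitinase, fell by 0.41 and 0.39. SUZ12, a polycomb subunit, rose by 0.32 and 0.31, and RCOR1, which is also among the genes most like ZEB1, rose by 0.56 and 0.23.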

How the data were processed

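Total RNA of 9 MDA-MB-231 libraries was made into stranded mRNA libraries and sequenced single-end on an Illumina NextSeq. Per the labels and methods, STAR aligned them to GRCh38.p13, and the values deposited by the authors are raw read counts for each gene, not normalized. The submitters' processing notes also name FastQC, featureCounts and Subread. The annotation release and the strand setting are not given in the sources used here. All columns matched the labels.

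Counts were analysed with R 4.3.3 and edgeR 4.0.16: filterByExpr (minimum count 10, minimum total 15), TMM scaling, 1 quasi-likelihood fit over 9 libraries (1 mean for each group) and Benjamini-Hochberg adjustment over 14274 genes, with a threshold of 0.05. CPM are TMM-scaled. The members and lists were chosen with earlier results of these data known. Named were the 10 members, AHR, SNAI3, antisense transcripts of members, the 3 genes most like each called member and, from each list, up to 3 genes with the largest rise and 3 with the largest fall (by the smaller of both hairpin effects) called alike with both hairpins, and every gene of a list with under 6 tested.

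Alternatives were DESeq2 1.42.0, its size factors in edgeR, total counts, no filter, a mean of at least 50 counts, fits of only the groups compared, a replicate block, leaving out each library, an adjusted p under 0.01 and an added absolute log2 fold change of at least 1. The fit was tested on simulated data. Positions are from GENCODE release 44 on GRCh38, and figures were drawn with Python 3.11.15 and matplotlib 3.10.9. Floors (3 counts) reflect counting error alone, as no molecular identifiers were used. The result of 1 marker gene is not reported here.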

Additional observations from a re-analysis of the deposited data

Results flagged for a closer look

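In 4 of the 7 tested genes the effect of the hairpins differed in the direct comparison of shAHR#3 with shAHR#2 by edgeR's quasi-likelihood test. CDH1 was 1.20 higher on the log2 scale with shAHR#3 (adjusted p = 1e-05), with every shAHR#3 library (72 to 94 reads) above every shAHR#2 library (24 to 40). SNAI1 was 0.68 higher with shAHR#3 (adjusted p = 0.0242), a call that DESeq2 did not make and that was lost when any 1 of 4 libraries was left out. ZEB1 differed by -0.29 (adjusted p = 3.11e-09) and VIM by -0.22 (adjusted p = 9.13e-10), each lower in 3 of 3 shAHR#3 libraries than in any shAHR#2 library. Causes of these differences were not tested.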

How the results depend on the processing

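Of the fold changes of the 7 tested genes under the alternatives, none that was called turned direction, 324 kept their side of the threshold and 6 calls were lost, all of SNAI1: with shAHR#3 against PLKO-GFP without PLKO-GFP replicate 1 (values without 1 library 0.57 to 0.88), and with shAHR#3 against shAHR#2 with DESeq2 (0.67) and without each of 4 libraries (0.54 to 0.64 in these, 0.54 to 0.90 over all libraries left out). Among the 324 are fits without a library of the group outside the comparison, which left the fold changes nearly as they were. At an adjusted p under 0.01, 4, 4 and 3 of the genes were called (shAHR#2, shAHR#3, direct comparison), and SNAI1 was not among them. A mean of at least 50 counts left CDH1 and SNAI1 untested, so 3 genes were called with shAHR#3 and 2 between the hairpins. Adding an absolute log2 fold change of at least 1 left 1, 2 and 1 of these genes (shAHR#2, shAHR#3, direct comparison) and 1691, 961 and 530 of all genes. Leaving out 1 library gave 4, 4 to 5 and 3 to 4 genes called, and 8864 to 9539, 7219 to 7822 and 5349 to 6037 of all genes. Correlations of same-numbered libraries ran from -0.0567 to 0.0752, and those of differently numbered libraries from -0.0782 to 0.0972. Between PLKO-GFP and shAHR#3 the same-numbered values (0.0467, 0.0532 and 0.0752) lay above the differently numbered ones (at most 0.00516). Whether replicate numbers pair the libraries was not tested. With the replicate block 4, 5 and 4 of these genes were called and 9406, 7844 and 6107 of all genes. Scaling by total counts moved the levels per kb of SNAI2 (12.39) and VIM (519.6) with PLKO-GFP and of VIM with shAHR#2 (730.1) by more than 1 SD. Depth limits CDH2, CDH1 and SNAI1, with at most 8, 94 and 54 reads per library.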
